A study of Mus musculus with 4 samples.

Results

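The genes described here encode the proteins of the mitochondrial ribosome, the Mrps genes (small subunit) and the Mrpl genes (large subunit). They were taken from the deposited count table as every row whose Ensembl identifier maps to a symbol that starts with Mrps or Mrpl followed by a digit, with 40 or more counts summed over the 4 libraries. The table lists 23390 gene models, and 78 of them met the rule, 29 Mrps and 49 Mrpl genes. The count minimum removed none of them, since the summed counts ran from 2544 to 27661. All 78 were also among the 13214 genes that passed the low-count filter of the test.

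RNA-seq was done on mouse bone marrow macrophages that were being turned into osteoclasts, the multinucleated cells that resorb bone. BMS-582949, which inhibits the kinase p38α, was compared with its solvent DMSO, with 2 libraries in each group. In both groups the cells came from wild-type C57BL/6J mice. Marrow cells were grown for 3 days with the supernatant of L929 cells as a source of M-CSF (equivalent to 20 ng/ml), reseeded and given 40 ng/ml RANKL, and RNA was taken at day 4. The BMS-582949 group received the compound at 10 µM and the DMSO group did not. The design text has the compound present for 3 days before a change of medium, whereas the treatment protocol has 4 days. That protocol is worded alike for every sample, so the groups were read from the treatment label. The labels do not tell whether libraries within a group stem from different animals or cultures. The p-values thus reflect only the spread among these 4 libraries, and that spread may be technical.

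Mitochondria carry their own ribosome, which makes the few proteins encoded by mitochondrial DNA, all of them core parts of the respiratory chain and ATP synthase. Its RNAs are transcribed inside the organelle, while all of its proteins are encoded in the nucleus, made in the cytosol and imported. Part of these proteins have counterparts in bacterial ribosomes, and the others are found only in mitochondrial ribosomes. Osteoclasts are rich in mitochondria, and mitochondrial content and respiration are known to increase as they form.

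Many promoters of such genes lack a TATA box and hold short motifs of the factors GABP (an ETS factor), NRF1 and YY1, known regulators of nuclear genes for mitochondrial proteins. The RefSeq promoter table (build GRCm38.p6, 250 bases before to 50 bases after each start, 300 bases in all) held 75 windows for 69 of the 78 genes. Mrps28, Mrps34, Mrps35, Mrpl4, Mrpl13, Mrpl15, Mrpl19, Mrpl38 and Mrpl54 had no window there. The 5 windows printed here were chosen after the values had been seen: Mrpl34 and Mrps18a, among the genes with the largest falls, Mrps22, which was not called, Mrpl32, with 4 matches to NRF1, and Mrps11, whose window overlaps that of the neighbouring Mrpl46. Capitals mark exact matches on either strand to CCGGAAG (ETS, GABP), GCATGCGC (NRF1) and ATGGCGGC (YY1). GCATGCGC is nearly its own reverse complement, so its matches on opposite strands can overlap, as they do in Mrpl32. Matches of different motifs overlapped in 0 windows.
Mrpl34, chr8:71464676-71464975, plus strand: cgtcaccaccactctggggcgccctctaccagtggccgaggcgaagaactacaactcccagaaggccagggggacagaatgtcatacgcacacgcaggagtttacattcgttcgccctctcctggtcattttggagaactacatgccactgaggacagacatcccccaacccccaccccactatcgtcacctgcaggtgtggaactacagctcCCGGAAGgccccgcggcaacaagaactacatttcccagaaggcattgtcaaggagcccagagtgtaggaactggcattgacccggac
Mrps18a, chr17:46110754-46111053, plus strand: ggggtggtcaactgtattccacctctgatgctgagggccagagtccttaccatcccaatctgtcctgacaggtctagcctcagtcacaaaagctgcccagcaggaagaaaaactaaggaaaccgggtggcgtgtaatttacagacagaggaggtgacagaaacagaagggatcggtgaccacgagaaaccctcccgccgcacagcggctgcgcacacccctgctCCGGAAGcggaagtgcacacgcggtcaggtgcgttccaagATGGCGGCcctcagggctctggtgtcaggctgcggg
Mrps22, chr9:98601630-98601929, minus strand: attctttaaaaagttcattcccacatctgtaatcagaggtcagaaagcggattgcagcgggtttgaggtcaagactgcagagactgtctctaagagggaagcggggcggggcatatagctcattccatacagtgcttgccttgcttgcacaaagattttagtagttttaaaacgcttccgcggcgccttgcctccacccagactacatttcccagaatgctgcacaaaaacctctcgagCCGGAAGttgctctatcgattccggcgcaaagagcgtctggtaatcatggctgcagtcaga
Mrpl32, chr13:14612988-14613287, minus strand: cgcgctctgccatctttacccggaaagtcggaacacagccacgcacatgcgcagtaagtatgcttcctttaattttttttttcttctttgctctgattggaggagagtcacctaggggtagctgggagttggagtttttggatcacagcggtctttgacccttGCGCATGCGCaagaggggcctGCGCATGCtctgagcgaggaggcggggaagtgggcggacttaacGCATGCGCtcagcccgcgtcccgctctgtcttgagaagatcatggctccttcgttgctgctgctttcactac
Mrps11, chr7:78782881-78783180, plus strand: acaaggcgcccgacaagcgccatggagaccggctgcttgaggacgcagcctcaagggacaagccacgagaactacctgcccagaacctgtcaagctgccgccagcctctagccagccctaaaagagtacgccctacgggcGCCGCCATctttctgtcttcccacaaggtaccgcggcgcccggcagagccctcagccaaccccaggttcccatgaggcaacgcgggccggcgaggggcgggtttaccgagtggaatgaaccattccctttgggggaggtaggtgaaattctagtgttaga

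At least 1 of the 3 motifs was present in 48.0% of the windows of these genes, against 24.6% of the windows of all genes tested and 12.7% of all windows in the table. The ETS motif was in 34.7% of their windows, against 17.2% for the genes tested and 8.86% for all windows. For NRF1 the shares were 10.7%, 5.12% and 2.71% in the same order. YY1 was in 12 of their 75 windows, against 4.66% and 2.24%. All of its matches but that of Mrps11 lay on the strand of the gene, 2 (Mrps5) to 30 (Mrpl50) bases after the start. By the RefSeq starts these are in transcribed sequence, and whether they are part of the coding sequence was not checked. In 65 of the 75 windows the first 20 bases from the start lay in a GENCODE transcript of the gene. Genes called lower did not hold the motifs more often than the others: 43.9% of their 57 windows had at least 1, against 61.1% of the 18 windows of genes not called lower. A match is a run of letters and is not evidence of a bound factor.

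Total counts were 39255925 and 37455168 in the BMS-582949 libraries, against 35331889 and 36178333 in the DMSO libraries. CPM, counts divided by the scaled library size in units of 1e6, and fold changes are scaled by TMM, a trimmed mean over genes that sets the bulk of genes to no net change. Of the 13214 genes tested with edgeR's quasi-likelihood test, 7954 (60.2%) passed a Benjamini-Hochberg adjusted p of 0.05, 3919 of them lower (29.7%) and 4035 higher (30.5%) with BMS-582949. Scaling matters here: without TMM, by library size only, log2 fold changes of all genes had a median of 0.41 in place of 0.03, a shift of 0.38, and 75.1% of the calls were higher in place of 50.7%. Of 12 osteoclast markers all were called lower with BMS-582949, and they summed to 12903 and 13076 CPM in the BMS-582949 libraries, against 102558 and 107031 CPM in the DMSO libraries. All 12 proliferation markers were called higher (1725 and 1781 CPM in BMS-582949 libraries, 507 and 514 CPM in DMSO libraries), as were 7 of 12 macrophage markers, with 2 lower (11312 and 12096 CPM in BMS-582949 libraries, 10632 and 10853 CPM in DMSO libraries). No marker of these 3 lists was at 0. Of 9 tested stromal markers 6 were lower and 1 higher (990 and 960 CPM in BMS-582949 libraries, 1203 and 1091 CPM in DMSO libraries). Neutrophil markers (3 of 7 tested lower) summed to 17.6 and 20.9 CPM in BMS-582949 libraries, against 28.0 and 27.7 CPM in DMSO libraries. Of 3 tested lymphoid and erythroid markers 0 were called (2.45 and 1.94 CPM in BMS-582949 libraries, 1.29 and 2.22 CPM in DMSO libraries, Cd3e at 0 throughout). These marker differences accompany every result on the ribosomal protein genes, and their part in the results was not tested. In bulk RNA fewer cells of a type and less RNA per cell cannot be told apart.

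Most mitochondrial ribosomal protein genes were lower with BMS-582949 relative to the other genes. Of the 78, 57 (73.1%) were called lower, against 29.7% of all genes tested, and 1 (1.28%) was called higher, Mrpl19, against 30.5%. The other 20 were not called. Their median log2 fold change was -0.37, with quartiles of -0.57 and -0.19 and extremes of -1.40 (Mrpl41) and 0.43 (Mrpl53, not called). The falls were mostly moderate, since 5 of the 78 were called lower by at least 2-fold, against 11.3% of all genes tested. Both BMS-582949 libraries lay below both DMSO libraries in 70 of the 78 genes, against 38.7% of all genes tested, and above both in 4 (Mrpl19, Mrpl23, Mrpl45 and Mrpl49), against 41.4%. The groups overlapped in Mrpl15, Mrpl35, Mrpl39 and Mrpl53, while in 80.2% of all genes tested they did not overlap in either direction. With scaling by library size only, 21 fell and 20 rose, and the median was 0.0067. A scaling factor moves all genes alike, so the distance to the other genes hardly depends on it: under TMM 72 of the 78 lay below the median of all genes, and their median lay 0.40 below it. Removing the trend of each library on GC content and exon length can move that distance. After it, 64 of the 78 lay below the median of all genes, and their own median was -0.32 relative to that median. Then 48 (61.5%) were called lower and 5 higher, against 28.9% and 31.6% of all genes tested.

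**Figure D1:**
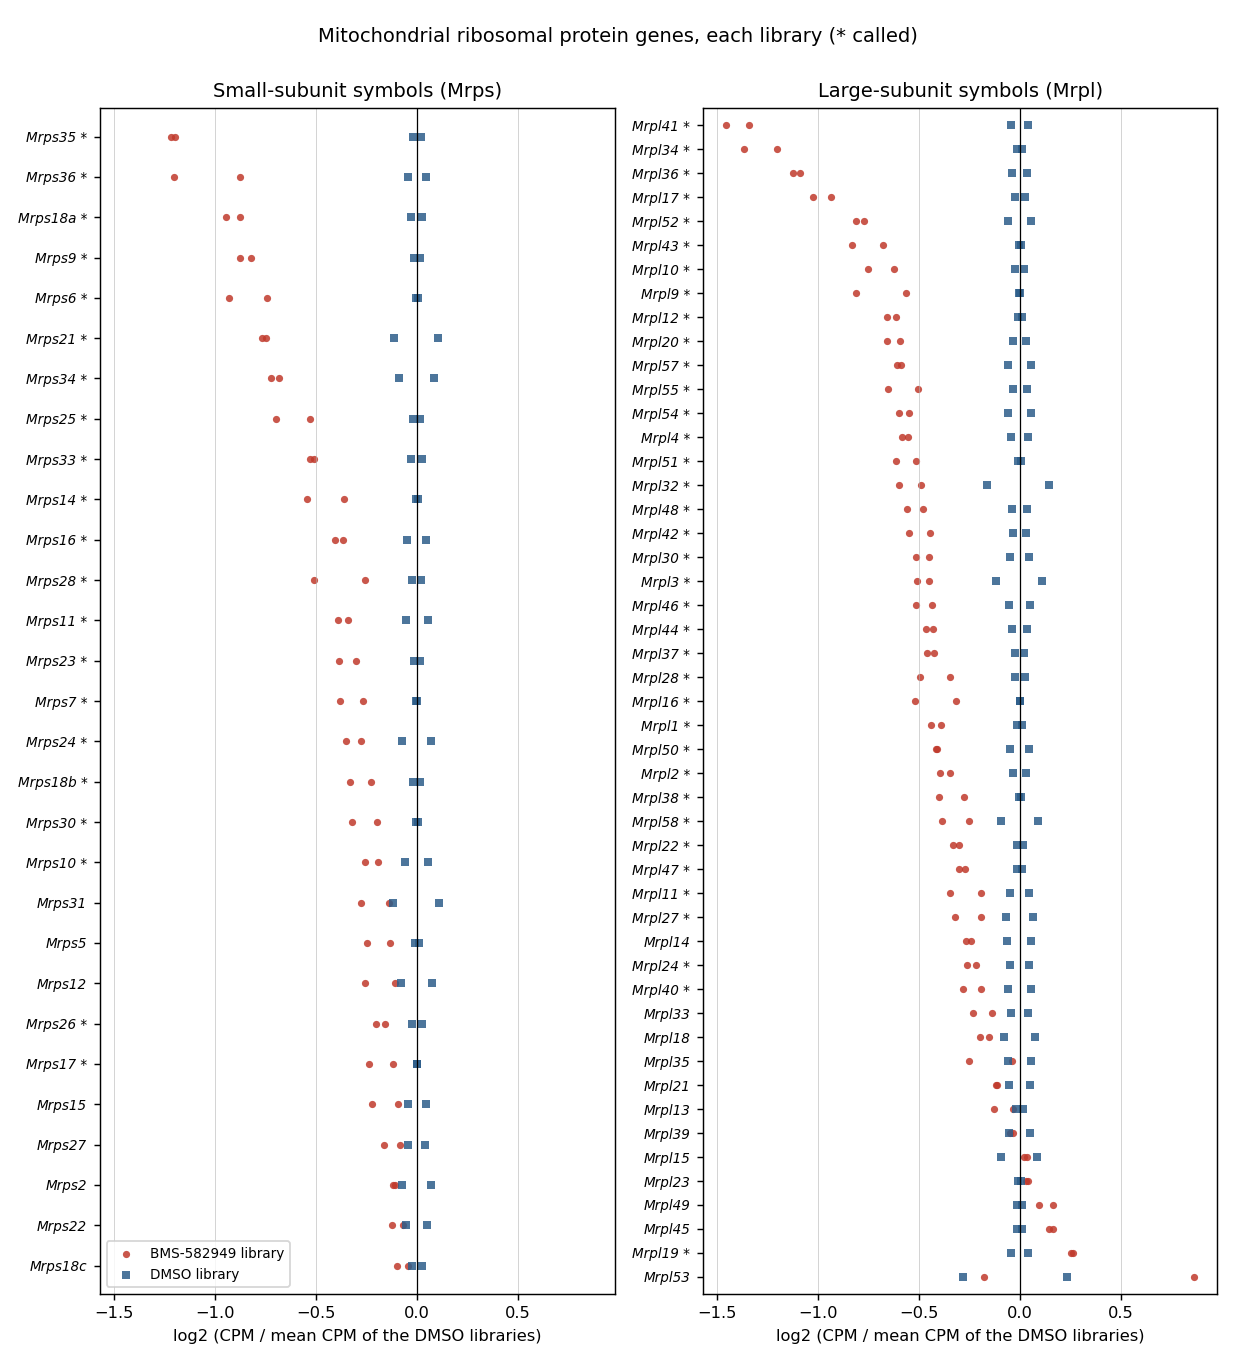
Level of each of the 78 genes in each library as log2 of its TMM-scaled CPM over the mean of the DMSO libraries (x axis), Mrps genes on the left and Mrpl genes on the right, ordered by fold change. Red circles are the 2 BMS-582949 libraries, blue squares the 2 DMSO libraries, and an asterisk marks an adjusted p under 0.05. All 29 Mrps genes and 41 of 49 Mrpl genes have both circles left of both squares under TMM scaling. By library size only 20 of the 78 genes were called higher, against 51.0% of all genes tested.

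Summed over the 78 genes, the level was 3762 and 3918 CPM in the BMS-582949 libraries, against 5335 and 5251 CPM in the DMSO libraries. As a share of all raw counts, which uses no TMM factor, they took 0.433% and 0.443% in BMS-582949 libraries, against 0.469% and 0.458% in DMSO libraries. Both measures were lower in both BMS-582949 libraries, by much less in the raw share.

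The small and the large subunit had close shares of genes called lower, 72.4% of the Mrps and 73.5% of the Mrpl genes. Of the 29 Mrps genes 21 were lower and 0 higher, with a median log2 fold change of -0.32. Of the 49 Mrpl genes 36 were lower and 1 higher, with a median of -0.41. Relative to the median of all genes these medians are -0.35 and -0.44. By library size only the signs part, with a median of 0.06 for Mrps and -0.03 for Mrpl genes and 8 Mrps and 13 Mrpl genes called lower. The summed level of the Mrpl genes over that of the Mrps genes was 1.97 and 1.94 in BMS-582949 libraries. It was 1.98 and 1.95 in DMSO libraries, so the ratio overlapped between the groups. An exact two-sided permutation test over libraries gave p = 0.667. With 2 against 2 libraries that p cannot go below 0.333, so the test could not show a difference.

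The symbols do not follow the structure throughout: in mammalian structures the proteins of Mrps18a and Mrps30 sit in the large subunit, and that of Mrps36 is not among the ribosomal proteins but is a component of the 2-oxoglutarate dehydrogenase complex. Sorted by structure, 18 of 26 small-subunit genes and 38 of 51 large-subunit genes were lower, with medians of -0.32 and -0.41. The large over small ratio of summed levels was then 2.32 and 2.30 in BMS-582949 libraries, against 2.44 and 2.39 in DMSO libraries, a gap larger than that between libraries of a group. The exact two-sided permutation test over libraries gave p = 0.333, the smallest that 2 against 2 libraries allow (0.667 adjusted over both ratios). Genes with a bacterial counterpart (32 of 46 lower and 1 higher, median -0.35) and mitochondrion-specific ones (24 of 31 lower, median -0.44) both moved down in most cases under TMM scaling. In the large subunit 17 of 21 mitochondrion-specific and 21 of 30 bacterial-type genes were lower, and in the small subunit 7 of 10 and 11 of 16, in the same order. No difference between these classes was tested.

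The largest fall was that of Mrpl41, which encodes a mitochondrion-specific protein of the large subunit (ENSMUSG00000036850, GRCm38 chr2:24974117-24975098, minus strand). It had 32.7 and 35.4 CPM in BMS-582949 libraries, against 92.2 and 87.1 CPM in DMSO libraries, which is -1.40 ± 0.08 as a log2 fold change with its SE (adjusted p = 9.3e-09, edgeR). The gap between the groups was far wider than that within them, and the level with BMS-582949 was 62.0% lower. Mrpl34 (chr8:71464959-71465747, plus strand), a counterpart of bacterial L34 whose promoter is printed above, had 39.3 and 44.0 CPM in BMS-582949 libraries, against 102 and 100.3 CPM in DMSO libraries. Its log2 fold change was -1.28 ± 0.07 (adjusted p = 1.8e-08). Mrps35 (chr6:147042764-147073991, plus strand), which encodes a mitochondrion-specific small-subunit protein, had 41.7 and 41.1 CPM in BMS-582949 libraries, against 94.3 and 97.1 CPM in DMSO libraries. Its log2 fold change was -1.21 ± 0.07 (adjusted p = 1.3e-08), and no library came near the other group.

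Mrpl36 (chr13:73328513-73332178, plus strand), the counterpart of bacterial L36, had 50.8 and 52.2 CPM in BMS-582949 libraries, against 114 and 108 CPM in DMSO libraries, a log2 fold change of -1.11 ± 0.07 (adjusted p = 2.6e-08). Mrpl17 (chr7:105803206-105811099, minus strand), the counterpart of bacterial L17, had 75.9 and 80.7 CPM in BMS-582949 libraries, against 157 and 151 CPM in DMSO libraries, a log2 fold change of -0.98 ± 0.06 (adjusted p = 5.6e-08). Both kept the groups far apart. Mrps36 (chr13:100735955-100744659, minus strand), the dehydrogenase component named above, had 32.3 and 40.5 CPM in BMS-582949 libraries, against 76.6 and 72.0 CPM in DMSO libraries. Its log2 fold change was -1.03 ± 0.10 (adjusted p = 2.0e-06), so a gene outside the ribosome is among the 6 largest falls. These 6 genes were called lower in each of the 14 fits compared, which differ in scaling, filter, tool or libraries.

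The next genes in order were Mrps18a, Mrps9, Mrps6, Mrpl52, Mrps21, Mrpl43 and Mrps34, with log2 fold changes of -0.91 to -0.70, all called. Mrps9, Mrps6 and Mrps21 are counterparts of bacterial S9, S6 and S21. Mrps34 shares exon sequence with other gene models on both strands (37.0% of its exon bases on the same strand and 63.4% on the opposite), so its count may hold reads of those models. Mrps25 is covered by Nr2c2 on the opposite strand over 69.8% of its exon bases. Of the 78 genes, 45 share no exon bases with another annotated model, and among these 34 were lower and 0 higher.

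Mrps18a, Mrps18b and Mrps18c encode relatives of bacterial S18 that take different places, Mrps18a in the large subunit and the others in the small one (of the 3, Mrps18c is counted above as the bacterial-type gene). Mrps18a (chr17:46110986-46128910, plus strand) had 63.7 and 66.8 CPM in BMS-582949 libraries, against 125 and 120.5 CPM in DMSO libraries, a log2 fold change of -0.91 ± 0.06 (adjusted p = 1.1e-07). Mrps18b (chr17:35910379-35916389, minus strand) had 55.7 and 59.9 CPM in BMS-582949 libraries, against 70.8 and 69.1 CPM in DMSO libraries, a log2 fold change of -0.28 ± 0.07 (adjusted p = 0.0049). Mrps18c (chr5:100798627-100804471, plus strand) had 30.3 and 29.1 CPM in BMS-582949 libraries, against 31.7 and 30.7 CPM in DMSO libraries, a log2 fold change of -0.07 ± 0.10 (adjusted p = 0.58). The 3 paralogues thus span a steep fall, a small fall and no call. The small fall, that of Mrps18b, was called in 12 of 14 fits. Its log2 fold change was 0.10 by library size only and -0.05 after removal of the GC and length trends, where that of Mrps18c was 0.15. The differences between the 3 paralogues were not tested. Mrps18b shares 30.5% of its exon bases with Gm16279 on the opposite strand and Mrps18c 23.2% with Gm43511 on its own strand.

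The mRNAs for the stalk that recruits translation factors were lower with BMS-582949. Mrpl12, the counterpart of bacterial L7/L12 (chr11:120484613-120489065, plus strand), had 147 and 152 CPM in BMS-582949 libraries, against 234 and 231 CPM in DMSO libraries, a log2 fold change of -0.63 ± 0.06 (adjusted p = 1.5e-06). Mrpl10, the stalk base (chr11:97041560-97049213, plus strand), had 67.3 and 73.5 CPM in BMS-582949 libraries, against 111 and 115 CPM in DMSO libraries, a log2 fold change of -0.69 ± 0.07 (adjusted p = 2.5e-06). Both were lower in all 14 fits. Mrpl11, whose protein lies beside the stalk in the GTPase-associated region (chr19:4962147-4966999, plus strand), had 47.8 and 53.3 CPM in BMS-582949 libraries, against 62.7 and 58.8 CPM in DMSO libraries. Its log2 fold change was -0.27 ± 0.08 (adjusted p = 0.012). This call was lost without replicate 1 of BMS-582949 (log2 fold change -0.19) or of DMSO (-0.22). Such fits hold a single library in that group, so a lost call need not mean a changed value.

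At the decoding centre, Mrps12, the counterpart of bacterial S12 (chr7:28739641-28741820, minus strand), was not called. It had 25.1 and 27.9 CPM in BMS-582949 libraries, against 28.5 and 31.6 CPM in DMSO libraries, a log2 fold change of -0.18 ± 0.11 (adjusted p = 0.18). Mrps30 (chr13:118378381-118387252, minus strand) had 48.6 and 52.8 CPM in BMS-582949 libraries, against 60.9 and 60.4 CPM in DMSO libraries, a log2 fold change of -0.26 ± 0.08 (adjusted p = 0.010). The groups were apart in both genes, narrowly so in Mrps12, and the call on Mrps30 was lost without BMS-582949 replicate 1 (-0.20).

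Mrpl58 encodes ICT1, a peptidyl-tRNA hydrolase built into the large subunit (chr11:115403752-115412674, plus strand). It had 40.6 and 44.6 CPM in BMS-582949 libraries, against 56.4 and 49.7 CPM in DMSO libraries. Its log2 fold change was -0.32 ± 0.09 (adjusted p = 0.0084), and -0.22 without DMSO replicate 1, where the call was lost. Mrpl32 encodes a protein that the m-AAA protease must trim before the ribosome is assembled (chr13:14608184-14613165, minus strand). It had 19.5 and 21.1 CPM in BMS-582949 libraries, against 32.6 and 26.4 CPM in DMSO libraries, a log2 fold change of -0.54 ± 0.13 (adjusted p = 0.0025). The DMSO libraries were further apart here than in most of these genes. The protease subunits Afg3l2 (log2 fold change -0.63) and Spg7 (-0.64), chosen after their values were seen, were also called lower. No other subunit of the protease is given here.

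Not all of these genes fell. Mrpl19, the counterpart of bacterial L19 (chr6:81957851-81965958, minus strand), had 49.2 and 49.0 CPM in BMS-582949 libraries, against 42.1 and 39.9 CPM in DMSO libraries, a log2 fold change of 0.26 ± 0.08 (adjusted p = 0.013). The call was lost without DMSO replicate 2 (0.22). It was also lost once the trend of each library on GC content and exon length had been removed (0.14, adjusted p = 0.13). Of its exon bases 36.0% are shared with Gcfc2 on the opposite strand, and whether counting used strand is not given in the sources used here. Mrpl45, which anchors the ribosome to the inner membrane (chr11:97315716-97329920, plus strand), had 62.2 and 61.2 CPM in BMS-582949 libraries, against 55.8 and 54.9 CPM in DMSO libraries. Its groups were apart, but its log2 fold change of 0.16 ± 0.07 was not called (adjusted p = 0.073). Mrpl53 had the highest log2 fold change, 0.43 ± 0.26 (adjusted p = 0.18), and the largest spread, with 13.0 and 26.7 CPM in BMS-582949 libraries, against 12.1 and 17.2 CPM in DMSO libraries. It shares 88.0% of its exon bases with Gm42688 on the same strand, and its value rests on single libraries. Without BMS-582949 replicate 2 it was -0.20 and without DMSO replicate 1 it was 0.20, neither called, while without BMS-582949 replicate 1 (0.86) or DMSO replicate 2 (0.72) it was called higher.

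Per kilobase of exon, the scale on which levels of different genes can be compared, Mrpl12 was highest in both groups, at 114 ± 2.5 CPM per kb in BMS-582949 libraries and 177 ± 1.6 in DMSO libraries (SD, n = 2 each). Mrpl1 was lowest in both, at 4.68 ± 0.11 CPM per kb in BMS-582949 libraries and 6.23 ± 0.071 in DMSO libraries. In BMS-582949 libraries Mrpl33 and Mrpl42 followed Mrpl12, at 108 ± 5.1 and 107 ± 5.3 CPM per kb, and did not differ from each other beyond their spread. The median over genes was 29.8 CPM per kb with BMS-582949 and 38.9 with DMSO. Across the 78 genes the log2 fold change was more negative at a higher mean level, at a Pearson r of -0.40 and a Spearman rho of -0.42 with mean log2 CPM. With log2 exon length r was 0.14 (rho 0.15) and with GC content r was -0.05. Weak correlations do not mean that these properties leave the values untouched: after removal of each library's trends on both, the median was -0.22 for Mrps and -0.27 for Mrpl genes, and r with log2 exon length was -0.37 (rho -0.34). These values describe genes measured in the same 4 libraries, and the mean level contains the values that form the fold change.

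The ribosomal proteins that carry other names were mixed. Dap3, a small-subunit GTP-binding protein, had 55.6 and 55.9 CPM in BMS-582949 libraries, against 88.5 and 89.8 CPM in DMSO libraries, a log2 fold change of -0.68 ± 0.07. Aurkaip1, a small-subunit protein, had 78.3 and 81.9 CPM in BMS-582949 libraries, against 119 and 115 CPM in DMSO libraries (-0.55 ± 0.06). Gadd45gip1, a large-subunit protein, was lower by a small margin (-0.22 ± 0.09, adjusted p = 0.044, edgeR). Chchd1 (-0.06) and Ptcd3 (0.10), both small-subunit proteins, were not called. In all 3 of 5 were lower and 0 higher, but by library size only there were 2 calls in each direction.

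Translation factors were mostly lower and assembly factors mixed under TMM scaling. Of 15 mitochondrial translation factors 9 were lower and 0 higher, with a median of -0.30. The largest fall was that of Taco1, an activator of COX1 translation (-1.09 ± 0.13, adjusted p = 1.4e-05), and the elongation factors Gfm1 (-0.79) and Tufm (-0.66) were lower as well. Of 29 tested assembly factors and rRNA-modifying enzymes 9 were lower (31.0%) and 2 higher (6.90%), against 29.7% and 30.5% of all genes tested. Their median was -0.11. The share lower is close to the background and is no result about this list. The rRNA methyltransferase Mrm1 fell most, with 13.4 and 13.0 CPM in BMS-582949 libraries, against 28.5 and 28.9 CPM in DMSO libraries (-1.12 ± 0.11). Mpv17l2 (-0.98), an assembly factor, and Nsun4 (-0.90), another rRNA methyltransferase, were also lower. Tfb1m, which dimethylates the small-subunit rRNA, went the other way, with 10.9 and 10.2 CPM in BMS-582949 libraries, against 6.31 and 5.13 CPM in DMSO libraries (0.88 ± 0.16, adjusted p = 0.00044), and the RNA helicase Dhx30 was also higher (0.35). By library size only these lists turned to 3 lower and 2 higher (translation factors) and 6 lower and 13 higher (assembly).

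All 13 protein-coding mRNAs of mitochondrial DNA, the templates this ribosome translates, were called lower, with a median log2 fold change of -0.92 and the largest fall in mt-Co1 (-1.31 ± 0.10). The nuclear genes that transcribe mitochondrial DNA did not move with them: 1 of 6 was lower, the low-abundance Mterf2 (-1.58), and Tfam (0.22) and Polrmt (0.04) were not called. All 36 nuclear complex I subunits were lower, with a median of -1.04. Both lists were lower in full also by library size only. Their medians lay further below 0 than the -0.37 of the 78 ribosomal protein genes, a difference that was not tested. The cytosolic ribosomal proteins had 4 of 77 lower and 33 higher, with a median of 0.12, and by library size only 71 were higher and 0 lower. Leaving out single libraries moved their 33 higher calls to between 17 (DMSO replicate 2 left out) and 38 (DMSO replicate 1 left out), and the 4 lower calls to between 1 and 9. The background shares of 29.7% lower and 30.5% higher given above apply to the counts under TMM scaling with all 4 libraries. By library size only they were 16.95% lower and 51.0% higher among all genes tested. The fits that leave out a library have background shares of their own.

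**Figure D2:**
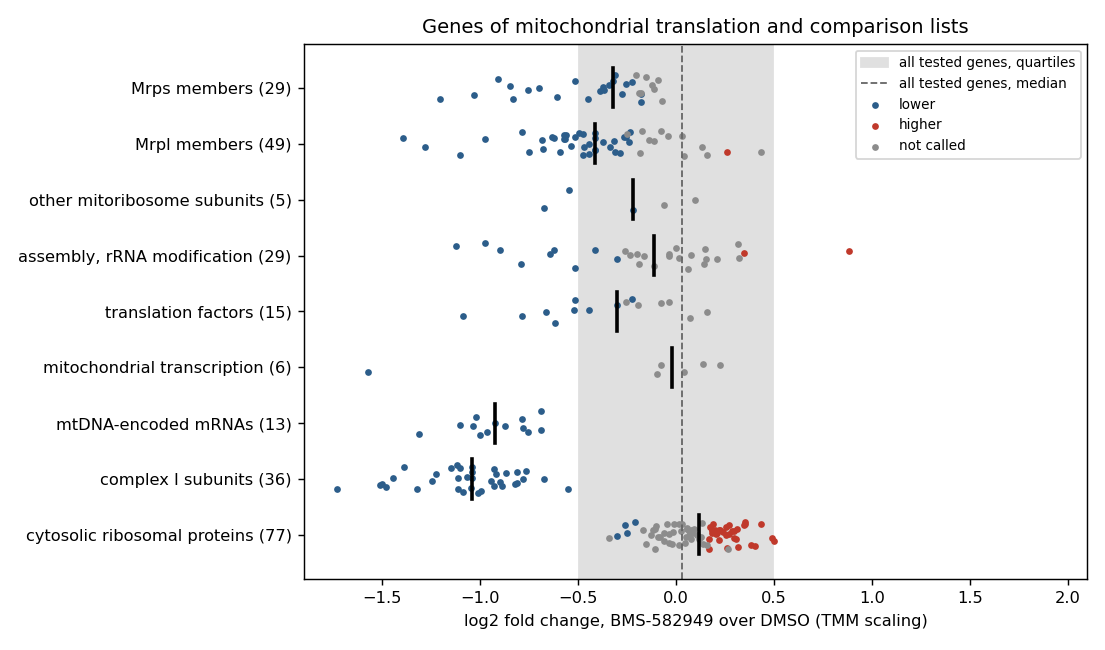
Log2 fold change of BMS-582949 over DMSO under TMM scaling (x axis) for each gene of 9 lists (rows, with the number tested), blue where called lower, red where called higher and grey where not called. Black bars are list medians, the grey band spans the quartiles of all genes tested and the dashed line is their median of 0.03. The Mrps and Mrpl medians of -0.32 and -0.41 lie between those of complex I (-1.04) and of the cytosolic ribosomal proteins (0.12). By library size only the Mrps median is 0.06 and all points lie further right.

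Many of these genes start next to another gene on the opposite strand. Starts are taken here as the outer ends of the GENCODE gene models, which can differ from the RefSeq starts of the promoter windows. Of the 78, 33 (42.3%) had the start of an oppositely directed protein-coding gene within 1000 bases, against 16.3% of the 12596 tested protein-coding genes. They form 32 pairs, 1 of which joins 2 of the genes described here, Mrps11 and Mrpl46, whose starts lie 412 bases apart. Both were lower, Mrps11 with 28.9 and 30.0 CPM in BMS-582949 libraries, against 36.5 and 39.4 CPM in DMSO libraries (-0.37 ± 0.10), and Mrpl46 by -0.47 ± 0.10. The call on Mrps11 was lost without DMSO replicate 2 (log2 fold change -0.31). Genes with and without such a neighbour were lower at like shares, 24 of 33 and 33 of 45.

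In 29 pairs the neighbour was tested, and 11 neighbours were lower, 8 higher and 10 not called, against 29.7% lower and 30.5% higher among all genes tested. Counts this close to the background are no result about the neighbours. Both genes were lower in 7 pairs, and in 5 the ribosomal protein gene was lower while its neighbour was higher. Mrpl57 was lower (-0.60 ± 0.08), while Ska3, a kinetochore gene whose start lies 49 bases away, had 21.05 and 20.5 CPM in BMS-582949 libraries, against 6.24 and 7.26 CPM in DMSO libraries (1.62 ± 0.13). Mrpl51 was lower (-0.56 ± 0.07), while Ncapd2, a condensin gene 100 bases away, had 174 and 157 CPM in BMS-582949 libraries, against 49.0 and 54.9 CPM in DMSO libraries (1.67 ± 0.08). Mrpl27 (-0.25) was paired with the endonuclease gene Eme1 (1.39), and this call on Mrpl27 was lost without BMS-582949 replicate 1 (-0.20) or DMSO replicate 1 (-0.18). The other 2 of these 5 pairs were Mrpl37 (-0.44) with Cyb5rl (0.65) and Mrpl40 (-0.23) with Hira (0.30), a histone chaperone gene. The call on Mrpl40 was lost without BMS-582949 replicate 1 (-0.19) or DMSO replicate 2 (-0.18).

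Other pairs moved down together. By its GENCODE model Mrpl36 (-1.11) starts 29 bases from Ndufs6, a complex I gene. The RefSeq promoter window of Mrpl36 (chr13:73330759-73331058) lies inside that gene model, so the distance depends on the annotation. Ndufs6 had 37.7 and 37.6 CPM in BMS-582949 libraries, against 69.9 and 63.5 CPM in DMSO libraries (-0.82 ± 0.08). Mrpl47 (-0.29) is paired with Ndufb5 (-1.10), also of complex I. The call on Mrpl47 was lost whichever library was left out, although its log2 fold change stayed between -0.32 and -0.27. Mrpl41 (-1.40) starts 935 bases from Pnpla7 (-1.30), and Mrpl2 (-0.37) 207 bases from Klc4 (-1.49). In the pair of Mrpl32 (-0.54), which holds the 4 NRF1 matches printed above, the proteasome gene Psma2 was not called (-0.04). Over the 29 pairs the log2 fold changes had a Pearson r of 0.28 and a Spearman rho of 0.23, a description of pairs measured in the same 4 libraries.

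**Figure D3:**
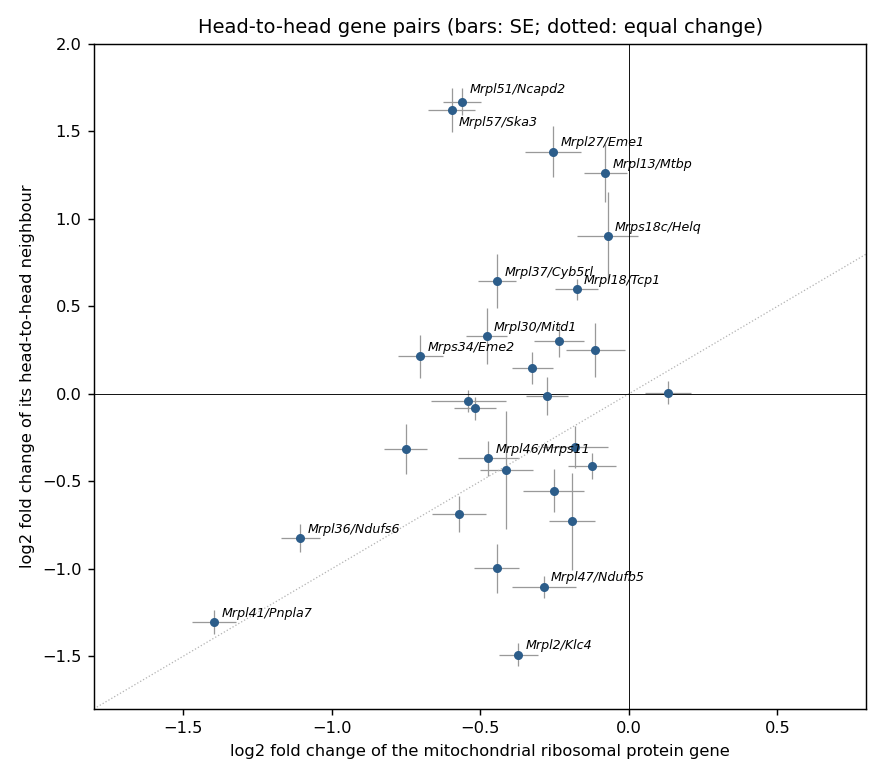
Log2 fold change (BMS-582949 over DMSO, TMM scaling) of the ribosomal protein gene (x axis) and of its oppositely directed neighbour (y axis) for the 29 pairs with both genes tested. Bars are SE and the dotted line marks equal change. Nearly all points lie left of 0, while neighbours run from -1.49 (Klc4) to 1.67 (Ncapd2). By library size only all values shift right and up.

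The calls differ in how far they rest on processing. Of the 78 genes, 21 were called lower in every one of 14 fits: Mrpl4, Mrpl9, Mrpl10, Mrpl12, Mrpl17, Mrpl20, Mrpl34, Mrpl36, Mrpl41, Mrpl43, Mrpl51, Mrpl52, Mrpl57, Mrps6, Mrps9, Mrps18a, Mrps21, Mrps25, Mrps34, Mrps35 and Mrps36. Lower in no fit were 14: Mrpl13, Mrpl19, Mrpl21, Mrpl23, Mrpl39, Mrpl45, Mrpl49, Mrpl53, Mrps2, Mrps12, Mrps18c, Mrps22, Mrps27 and Mrps31. The remaining genes were lower in part of the fits.

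**Figure D4:**
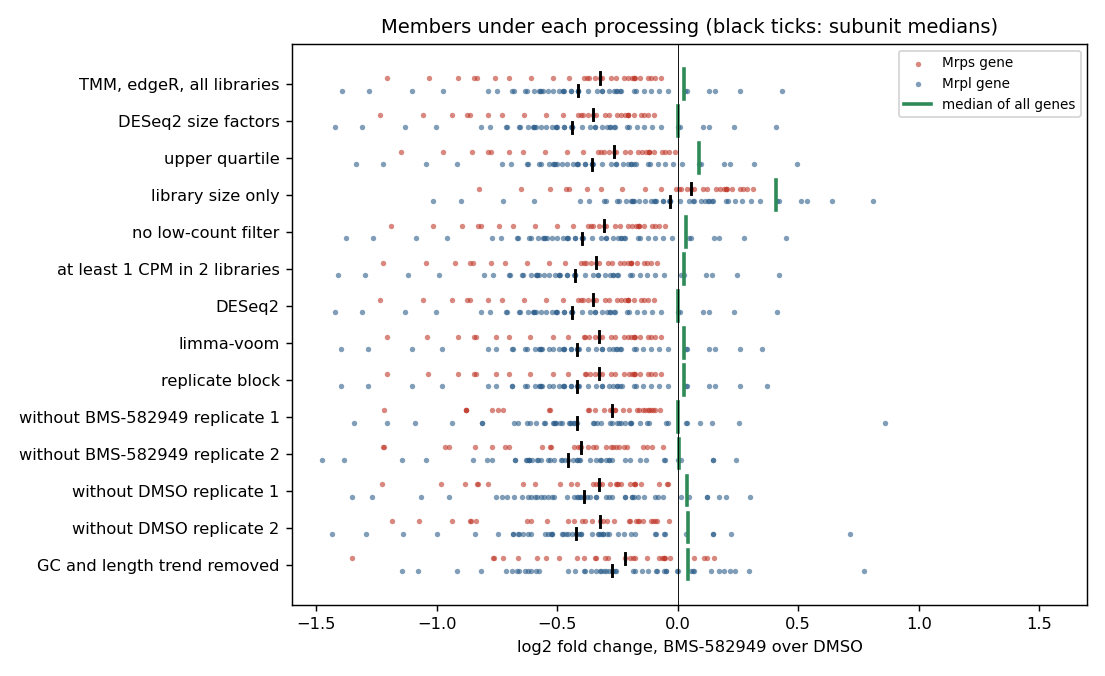
Log2 fold changes of the 78 genes (x axis, BMS-582949 over DMSO) in each of 14 fits (rows), red for Mrps and blue for Mrpl genes, with black ticks at their medians and a green line at the median of all genes. By library size only the whole distribution moves right, with medians of 0.06 (Mrps) and -0.03 (Mrpl) and a median of all genes of 0.41, since that scaling moves all genes alike.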

How the data were processed

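The table the authors deposited holds raw counts per gene, whole numbers with unequal column sums. HISAT2 2.0.4, Trimmomatic 0.36, DESeq2 1.30.1 and build GRCm38 are named, without roles, per the submitters' processing notes. The counting tool, its annotation and its use of strand are not given there. Symbols, coordinates and exon overlaps came from GENCODE M21, which matched 22022 of 22036 Ensembl identifiers.

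Tests used edgeR 4.0.16 under R 4.3.3 (filterByExpr, minimum count 10, TMM, glmQLFit and glmQLFTest, BMS-582949 over DMSO, no covariate, 2 residual degrees of freedom), with Benjamini-Hochberg adjustment over all 13214 genes tested. The SE of a log2 fold change is its absolute value divided by the square root of the F statistic of that test. CPM values are TMM-scaled, and those per kb are divided by exon length. Subunit ratios were compared by exact permutation over libraries. The scripts were tested on simulated data. Between libraries of a group the chi-square over its degrees of freedom was 14.1 for BMS-582949 and 10.02 for DMSO, beyond sampling noise, so they were not taken for repeat deposits of 1 library. This does not show that they are separate cultures. Intervals of counting error are not printed.

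The genes and lists were chosen with earlier results of these data known. Full statistics are given for the 6 largest falls and rises among called genes with a mean of at least 10 CPM, for every gene called against the majority, and for Mrps18a, Mrps18b, Mrps18c, Mrps12, Mrps30, Mrps36, Mrpl10, Mrpl11, Mrpl12, Mrpl32, Mrpl45 and Mrpl58. For other lists the largest called rise and fall at a mean of at least 1 CPM and all 5 ribosomal proteins with other names may be named, and genes outside this rule were chosen after their values were seen. Alternatives used DESeq2 1.42.0, limma 3.58.1 (voom), other scalings and filters, a loess correction for GC content and exon length (span 0.3), a replicate block, and removal of each library. Removal of a library left a single library in its group, so a call could be lost there with little change in the fold change. Leaving out genes with exon overlap was chosen after seeing the data.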

Additional observations from a re-analysis of the deposited data

How the results depend on the processing

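With 2 libraries a group, the main limits are the few libraries and the scaling. The count of genes lower stayed between 48 and 61 under DESeq2, DESeq2 size factors, upper-quartile scaling, both other filters, voom, the replicate block and removal of GC and length trends, against 57 in the report. Library size only gave 21 lower (8 Mrps, 13 Mrpl) and 20 higher, with medians of 0.056 (Mrps) and -0.033 (Mrpl), and it turned 19 genes called lower to values above 0: Mrpl2 0.0096, Mrpl11 0.11, Mrpl22 0.067, Mrpl24 0.14, Mrpl27 0.13, Mrpl38 0.044, Mrpl40 0.15, Mrpl47 0.10, Mrpl58 0.065, Mrps7 0.056, Mrps10 0.16, Mrps11 0.014, Mrps17 0.20, Mrps18b 0.10, Mrps23 0.037, Mrps24 0.067, Mrps26 0.20, Mrps28 0.0038 and Mrps30 0.12. Of these, Mrps17 (adjusted p = 0.018) and Mrps26 (adjusted p = 0.027) were then called higher in edgeR. This change follows from the construction of the alternative, which omits the TMM factors. Removing GC and length trends gave 5 higher, medians of -0.22 (Mrps) and -0.27 (Mrpl) and 0.063 for Mrpl27; the cause was not tested. Medians for Mrps and Mrpl genes were -0.35 and -0.44 with DESeq2 and with its size factors, and -0.27 and -0.35 with upper-quartile scaling, which called 3 higher. The Mrps median was -0.34 with at least 1 CPM in 2 libraries and -0.31 with no low-count filter.

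An adjusted p under 0.01 left 0 genes higher. A log2 fold change of at least 1 left 2813 genes in all, 5 lower (2 Mrps, 3 Mrpl) and 0 higher. Without genes whose exons overlap another model, 34 were lower (12 Mrps, 22 Mrpl) and 0 higher, with a Mrps median of -0.36, since fewer genes are counted. Leaving out single libraries gave 49 to 59 lower (Mrps 17 to 22, Mrpl 30 to 37), 1 to 2 higher, and medians of -0.40 to -0.27 for Mrps and -0.46 to -0.39 for Mrpl genes, with 7220 to 7518 genes called in all. Besides those named in the report, the calls on Mrps10, Mrps17, Mrps26, Mrps28, Mrpl22 and Mrpl24 were lost without at least 1 library. The replicate numbers share only a number: deviations of same-numbered libraries correlated at -0.078. With the replicate block 53 genes were lower and 2 higher (Mrpl19 and Mrpl53).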
